A study of Homo sapiens with 51 samples.

Results

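The comparison described here set DDX3 carrying the G325E substitution against wild-type (WT) DDX3 in K562 cells, a human leukaemia cell line with erythroid features. The libraries were chosen by their titles: 4 libraries named G325E (2 cytoplasmic-labelled and 2 nuclear-labelled) and 4 named WT (2 and 2), together 8 of the 51 libraries of the series. In all transgene groups endogenous DDX3 was knocked down by CRISPR interference and a DDX3 variant was overexpressed from a lentiviral transgene. 3 further groups of 4 libraries each served as reference levels: cells with the DDX3 knockdown and no transgene, uninfected cells, and cells with the R326H variant, which changes the neighbouring residue. Libraries of the R351W, R376C, R534S and T532M variants entered the same fits and are described where their values are given. RNA from each labelled fraction was depleted of ribosomal RNA and sequenced in a strand-specific protocol. Each group had 2 libraries per labelled fraction, except R376C, of which 1 library per labelled fraction was used. The labels do not say that the 2 libraries came from separate cultures, so each p-value reflects library-to-library spread alone, which may be technical. Neither the transgene promoter nor the number of clones is stated in the labels.

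DDX3X is a DEAD-box RNA helicase encoded on the X chromosome. It binds RNA and ATP, unwinds RNA duplexes and takes part in translation initiation, above all on messages with structured leaders, and it shuttles between nucleus and cytoplasm. ATF4 is the main transcription factor of the integrated stress response: its message carries upstream open reading frames, its protein is made when eIF2 is phosphorylated, and it turns on genes of amino acid synthesis, amino acid uptake and tRNA charging.

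The substituted residue lies in the helicase core. To show the position, the reference coding sequence around it is given from GENCODE 29 on GRCh38, transcript ENST00000644876 (662 codons, 17 exons), exon 10, codons 310 to 340, at chrX:41344302-41344394 on the plus strand. Capitals mark the glycine codon GGA (chrX:41344347-41344349) and the arginine codon CGT (chrX:41344350-41344352), the codons changed in the G325E and R326H variants.
DDX3X codons 310 to 340: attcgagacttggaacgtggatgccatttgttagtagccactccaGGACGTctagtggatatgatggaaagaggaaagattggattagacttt

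Before the results, the fractions need a caution. The content of the libraries ran against their labels. MALAT1, a long non-coding RNA kept in the nucleus, stood at 20729 to 24703 CPM (counts scaled to library size) in the 4 cytoplasmic-labelled G325E and WT libraries and at 2887 to 3254 CPM in the nuclear-labelled ones. NEAT1, the RNA scaffold of nuclear paraspeckles, stood at 3768 to 4569 CPM and at 113 to 156 CPM in the same order. Reads outside annotated exons made up 62.7 to 64.4% of the cytoplasmic-labelled and 8.67 to 9.60% of the nuclear-labelled reads. The fractions are therefore called by their labels only, and no direction of transport is read from them. Gene counts summed to 4155602 to 6045196 per cytoplasmic-labelled library and to 9026622 to 11884459 per nuclear-labelled library. Of 12 K562 markers, 10 (cytoplasmic-labelled) or 11 (nuclear-labelled) reached 1 CPM in every G325E and WT library, and HBE1, embryonic globin, was at 0. The B cell marker MS4A1, the epithelial markers KRT5 and CDH1 and the platelet marker PF4 were at 0 in all 8 libraries. Other markers of the epithelial and platelet sets were detected, so these zeros do not describe the whole sets. In the cytoplasmic-labelled fraction EPCAM stood at 16.2 and 16.4 CPM with G325E and at 18.0 and 15.9 CPM with WT. KRT18 stood at 45.0 and 42.9 against 40.4 and 46.0 CPM, and ITGA2B at 30.5 and 35.3 against 45.7 and 44.8 CPM.

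DDX3X itself, ENSG00000215301, was measured first, as the targeted gene. In the cytoplasmic-labelled libraries it stood at 430 and 393 CPM with G325E, at 314 and 321 CPM with WT, at 147 and 127 CPM without a transgene and at 280 and 289 CPM in uninfected cells. In the nuclear-labelled libraries the levels were 550 and 554 CPM with G325E, 370 and 361 CPM with WT, 147 and 147 CPM without a transgene and 284 and 298 CPM in uninfected cells. Both transgene groups thus lay above the knockdown alone, as their labels state, and G325E lay above WT with no overlap. The log2 fold change of G325E against WT was 0.37 ± 0.09 (SE; adjusted p = 0.0076) in the cytoplasmic-labelled and 0.59 ± 0.05 (adjusted p = 6.1e-16) in the nuclear-labelled fraction. The cytoplasmic-labelled call was lost without G325E replicate 1 (0.31, adjusted p = 0.16), WT replicate 1 (0.36, adjusted p = 0.10) or WT replicate 2 (0.39, adjusted p = 0.074). Reads of the gene and of the transgene cannot be told apart, and the G325E and WT cells differed in DDX3X level as well as in sequence, so dose and substitution cannot be told apart in this contrast. Among the 9 genotypes the mean level with G325E ranked second in the cytoplasmic-labelled fraction, after R376C (1 library, 419 CPM), and first in the nuclear-labelled fraction.

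Against WT, 1078 of 17530 genes tested (6.15%) differed in the cytoplasmic-labelled fraction at an adjusted p under 0.05, of which 387 (2.21%) were higher and 691 (3.94%) lower with G325E. The nuclear-labelled fraction had 2520 of 14598 genes (17.3%) differing, with 1258 (8.62%) higher and 1262 (8.65%) lower. The nuclear-labelled libraries were deeper and varied less between replicates (biological coefficient of variation 0.0482 against 0.0878). Of the 13968 genes tested in both fractions, 335 fell in both, which is 52.1% of the 643 that fell in the cytoplasmic-labelled and 26.7% of the 1255 that fell in the nuclear-labelled fraction. A further 166 rose in both, 43.5% of 382 and 13.2% of 1254. In opposite directions, 13 were lower in the cytoplasmic-labelled and higher in the nuclear-labelled fraction, and 9 the reverse. The median log2 fold change over all genes was 0.00 in both fractions. The G325E count in the cytoplasmic-labelled fraction rests on all 4 libraries: it was 450 and 501 genes without G325E replicate 1 or 2, and 464 and 455 without WT replicate 1 or 2. Leaving out 1 nuclear-labelled library gave 1448 to 1644 genes. In bulk RNA, a change in RNA per cell and a change in the share of cells cannot be told apart.

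**Figure D1:**
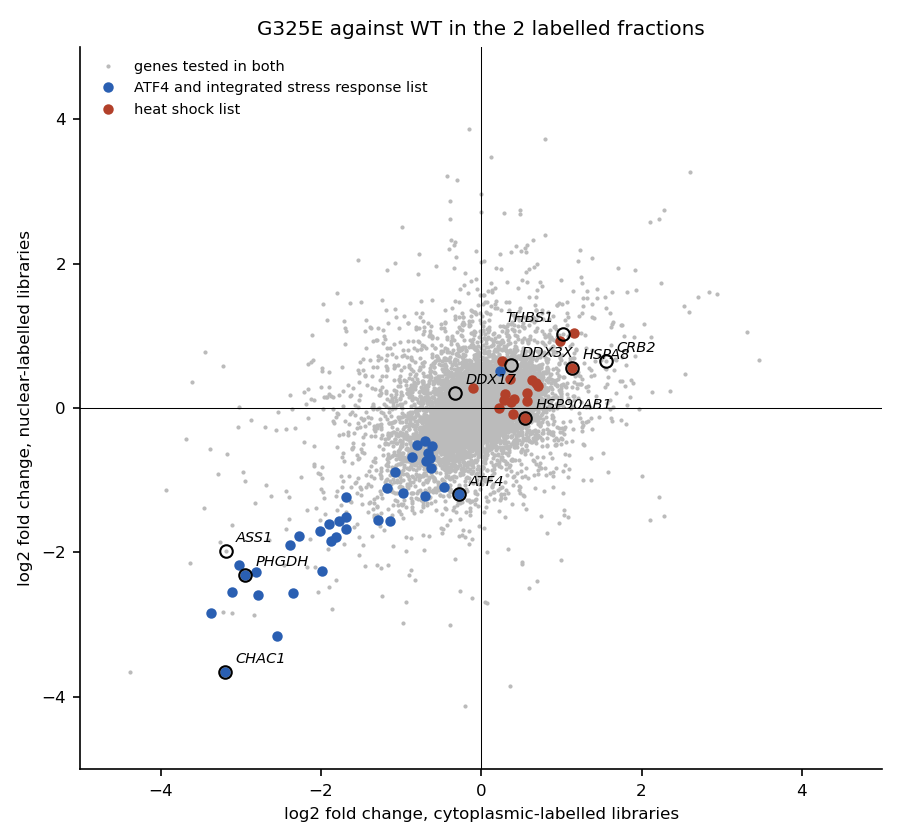
Log2 fold change of G325E against WT for 13968 genes, cytoplasmic-labelled on the x axis and nuclear-labelled on the y axis; 7 genes lie outside the axes. All members of the ATF4 list but ALDH18A1 lie in the lower left, where both changes are negative, and members of the heat shock list lie mostly to the upper right.

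Of the 31 gene lists, the one of ATF4 targets and the integrated stress response had the lowest median against WT in both fractions. Of 38 listed members 37 were tested. In the cytoplasmic-labelled fraction 33 fell and 0 rose, with a median log2 fold change of -1.68, beside 3.94% of all genes falling and a median of 0.00. Of the same members 36 fell and 1 rose in the nuclear-labelled fraction, with a median of -1.56, beside 8.65% of all genes falling and 8.62% rising. The list was drawn up with earlier results of these data known, so its count is a description. Members of the list made up 24 of the 247 genes that fell by more than 2-fold in the cytoplasmic-labelled fraction and 27 of the 151 in the nuclear-labelled fraction. For falls of more than 4-fold they made up 12 of 74 and 10 of 38.

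**Figure D2:**
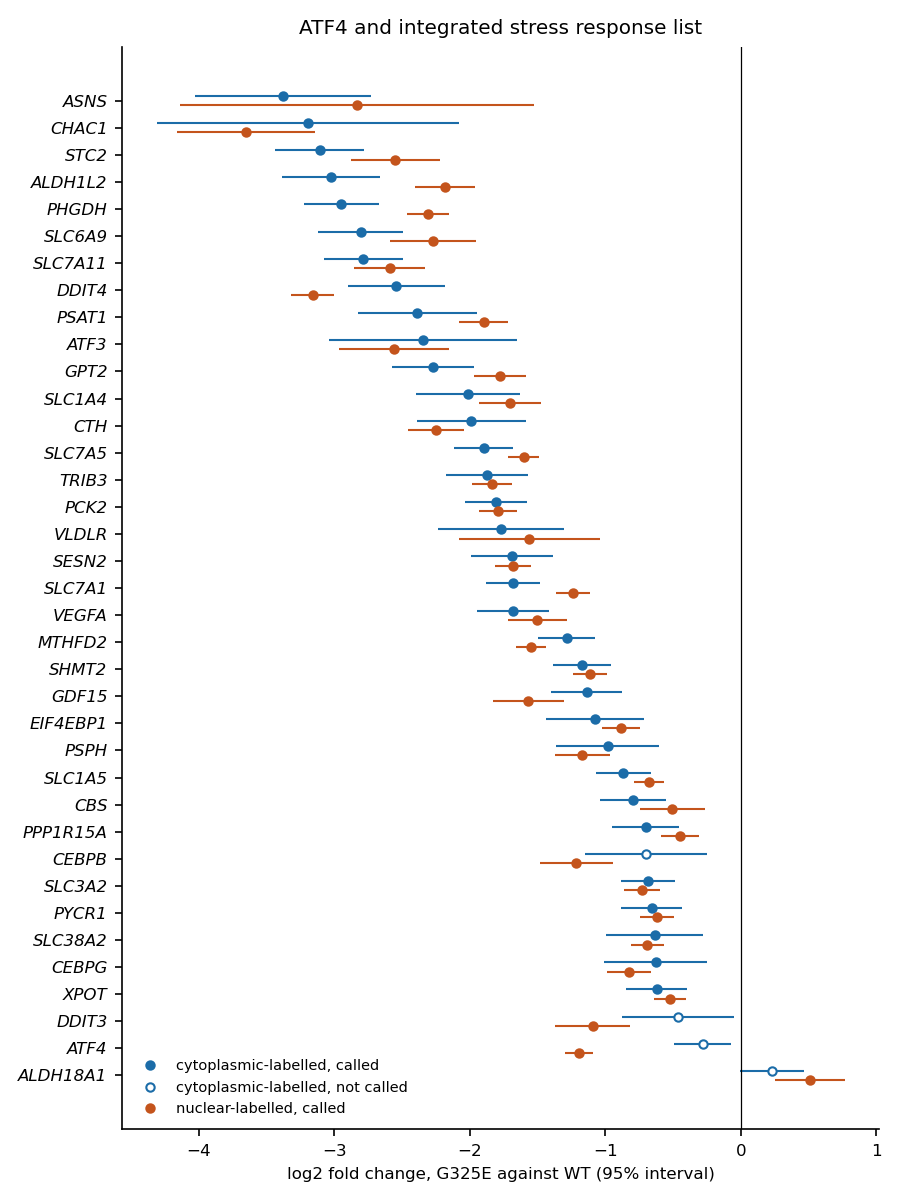
Log2 fold change of G325E against WT for the 37 tested members of the ATF4 list in each labelled fraction, with 95% intervals; open points did not pass the test. All but 1 member, ALDH18A1, have estimates below 0 in both fractions.

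Enzymes of serine and one-carbon metabolism were among the largest falls. PHGDH, the first enzyme of serine synthesis, stood at 31.3 and 34.8 CPM with G325E and at 267 and 245 CPM with WT in the cytoplasmic-labelled fraction, and at 39.4 and 39.1 against 193 and 196 CPM in the nuclear-labelled fraction. The groups did not overlap in either fraction, and the log2 fold changes were -2.95 ± 0.13 (adjusted p = 1.7e-17) and -2.31 ± 0.08 (adjusted p = 5.0e-39). PSAT1 and PSPH, the next steps of the same pathway, fell too, with log2 fold changes of -2.39 and -0.98 in the cytoplasmic-labelled and of -1.90 and -1.17 in the nuclear-labelled fraction. SHMT2 and MTHFD2, mitochondrial enzymes that pass the serine carbon to folate, fell to log2 fold changes of -1.17 and -1.29 in the former and of -1.11 and -1.55 in the latter. ALDH1L2, a mitochondrial folate enzyme, had -3.03 and -2.18. ASNS, asparagine synthetase, stood at 1.48 and 2.83 against 21.4 and 24 CPM in the cytoplasmic-labelled fraction, a log2 fold change of -3.38 ± 0.32. Its pseudogene ASNSP1, named after its values were seen, stood at 2.33 and 2.02 against 48.1 and 43.7 CPM there, so reads could be split between the copies and both values are uncertain. The nuclear-labelled ASNS call (-2.83) was lost without G325E replicate 1 (-2.21, adjusted p = 0.056).

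Amino acid transporters of the list were also lower. SLC7A11, the cystine importer, stood at 20.7 and 20.4 against 139 and 145 CPM in the cytoplasmic-labelled fraction and at 9.40 and 10.5 against 63.1 and 57.0 CPM in the nuclear-labelled fraction. Its log2 fold changes were -2.79 ± 0.14 and -2.59 ± 0.13. SLC7A5, which carries large neutral amino acids, stood at 117 and 121 against 447 and 442 CPM, and at 175 and 181 against 535 and 545 CPM, with no overlap (-1.90 ± 0.11 and -1.60 ± 0.06). SLC1A4, SLC6A9 and SLC7A1, further amino acid carriers, fell as well, with log2 fold changes of -2.01, -2.81 and -1.68 in the cytoplasmic-labelled and of -1.71, -2.27 and -1.24 in the nuclear-labelled fraction.

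Stress regulators and secreted factors followed. DDIT4, an inhibitor of mTORC1 signalling, stood at 20.1 and 19.8 against 114 and 118 CPM and, in the nuclear-labelled fraction, at 34.6 and 40.0 against 336 and 331 CPM (log2 fold changes -2.54 ± 0.18 and -3.16 ± 0.08). CHAC1, which breaks down glutathione, had the largest nuclear-labelled fall under the naming rule, at 1.52 and 2.53 against 25.9 and 24.8 CPM (-3.65 ± 0.26, adjusted p = 1.3e-19). STC2, a secreted glycoprotein, stood at 11.8 and 12.9 against 114 and 101 CPM in the cytoplasmic-labelled fraction (-3.11 ± 0.16). The transcription factor ATF3 fell in both fractions (-2.35 and -2.56), as did the pseudokinase TRIB3 (-1.87 and -1.84) and the secreted stress factor GDF15 (-1.14 and -1.57). PPP1R15A, the subunit that directs eIF2 dephosphorylation, had smaller falls (-0.70 and -0.45). 4 members did not pass the test in the cytoplasmic-labelled fraction: ATF4 (-0.28, 95% interval -0.49 to -0.07), the transcription factors CEBPB (-0.70, -1.15 to -0.25) and DDIT3 (-0.46, -0.88 to -0.05), and ALDH18A1 (0.23, -0.01 to 0.46). ALDH18A1, which makes the proline precursor, was the 1 member that rose in the nuclear-labelled fraction (0.51 ± 0.13), a call lost without G325E replicate 1 (0.41, adjusted p = 0.089).

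ATF4 itself differed between the fractions. In the cytoplasmic-labelled fraction it stood at 162 and 182 CPM with G325E and at 213 and 205 CPM with WT, and the log2 fold change of -0.28 ± 0.10 missed the threshold (adjusted p = 0.11). Its nuclear-labelled level was 276 and 274 against 640 and 621 CPM, a fall of 1.20 ± 0.05 on the log2 scale (adjusted p = 3.1e-32). The change in the nuclear-to-cytoplasmic labelled ratio was -0.94 ± 0.11 (adjusted p = 2.4e-08), and it remained called whichever library was left out. The level without a transgene was 286 and 310 CPM in the nuclear-labelled fraction and that of uninfected cells 867 and 877 CPM.

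Outside the list, 4 of the 10 largest cytoplasmic-labelled falls under the naming rule were TF, ASS1, ADM2 and INHBE. TF, the iron carrier transferrin, stood at 1.90 and 2.83 CPM with G325E against 30.8 and 28.7 CPM with WT (-3.63 ± 0.28). ASS1, which makes argininosuccinate in arginine synthesis, stood at 4.23 and 4.86 against 38.5 and 44.6 CPM (-3.19 ± 0.25). The secreted peptides ADM2 and INHBE had log2 fold changes of -3.23 and -3.10 there and of -2.82 and -2.84 in the nuclear-labelled fraction. In all of these the 2 groups did not overlap. MTRNR2L8, a near copy of mitochondrial MT-RNR2, had the largest fall (-7.07 ± 1.13), but its call was lost without G325E replicate 1 or 2 and its reads could belong to the mitochondrial gene.

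**Figure D3:**
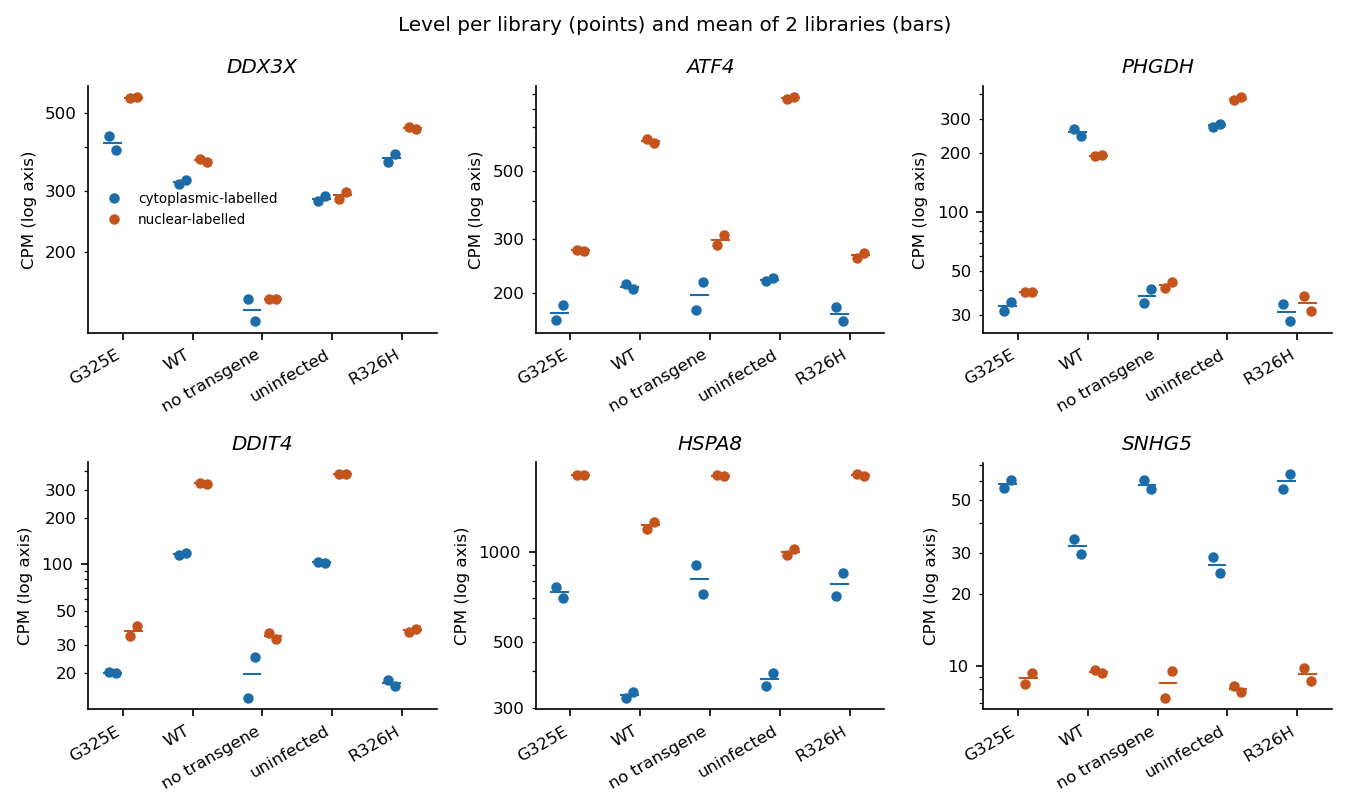
CPM per library, on a log axis, of DDX3X, ATF4, PHGDH, DDIT4, HSPA8 and SNHG5 in 5 genotypes and both labelled fractions; points are libraries and bars are means. PHGDH and DDIT4 levels with G325E lie beside those without a transgene and with R326H, and those with WT are nearer to uninfected cells.

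tRNA charging enzymes are further targets of ATF4. Of 20 cytosolic aminoacyl-tRNA synthetases, 11 fell and 1 rose in the cytoplasmic-labelled fraction (median -0.41), and 14 fell and 0 rose in the nuclear-labelled fraction (median -0.41), beside 3.94% and 8.65% of all genes falling. WARS1, which charges tryptophan, stood at 70.7 and 50.6 against 249 and 255 CPM, and at 148 and 137 against 383 and 359 CPM (-2.06 ± 0.14 and -1.38 ± 0.06). GARS1, which charges glycine, stood at 153 and 149 against 464 and 461 CPM in the cytoplasmic-labelled fraction (-1.62 ± 0.09). CARS1, MARS1 and AARS1, which charge cysteine, methionine and alanine, had log2 fold changes of -1.41, -1.18 and -1.05 there. The phenylalanine, histidine, lysine and arginine enzymes FARSA, FARSB, HARS1, KARS1 and RARS1 passed the test in neither fraction. VARS1, which charges valine, was the 1 member that rose (0.37 ± 0.10), a call lost whichever of the 4 libraries was left out (adjusted p 0.088 to 0.24).

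To show what the promoters of called members hold, RefSeq windows on GRCh38.p14 were searched for TGATGNAA, a form of the amino acid response element, on both strands of the 250 bases before each start. The motif was found in 870 of 27305 promoters (3.19%), in 3 of 29 matched members of the ATF4 list (10.3%) and in 2 of 16 matched synthetases (12.5%). The windows below are written on the gene's strand, and capitals mark the match (as TTNCATCA where it lies on the opposite strand). ATF3 is at chr1:212565200-212565239 (plus), ASNS at chr7:97872453-97872492 (minus), CHAC1 at chr15:40953246-40953285 (plus) and AARS1 at chr16:70289670-70289709 (minus). The match starts 191, 68, 209 and 187 bases before the start in the same order. A match describes these letters only, and no binding was measured.
ATF3: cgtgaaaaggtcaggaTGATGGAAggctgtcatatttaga
ASNS: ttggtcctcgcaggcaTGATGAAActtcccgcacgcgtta
CHAC1: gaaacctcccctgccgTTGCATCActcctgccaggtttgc
AARS1: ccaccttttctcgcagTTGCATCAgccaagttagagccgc

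Chaperones moved the other way. Of 18 heat shock genes, 10 rose and 0 fell in the cytoplasmic-labelled fraction (median 0.48, beside 2.21% of all genes rising). In the nuclear-labelled fraction 10 rose and 1 fell (median 0.24), beside 8.62% of all genes rising and 8.65% falling. HSPA8, the constitutive HSP70, stood at 762 and 703 against 325.4 and 340 CPM in the cytoplasmic-labelled fraction and at 1802 and 1808 against 1191 and 1259 CPM in the nuclear-labelled fraction. Both differences lay outside the spread of replicates (1.14 ± 0.10 and 0.56 ± 0.05). The inducible HSPA1A and HSPA1B, near-identical copies whose reads can be split between them, had log2 fold changes of 0.98 and 1.16 and of 0.93 and 1.04. The cytoplasmic-labelled HSPA1B call was lost without WT replicate 2 (0.90, adjusted p = 0.062). HSP90AB1, a constitutive HSP90, stood at 1184 and 1013 against 751 and 750 CPM in the cytoplasmic-labelled fraction (0.55 ± 0.09) but at 2368 and 2356 against 2613 and 2569 CPM in the nuclear-labelled fraction (-0.13 ± 0.05). That small nuclear-labelled fall was lost whichever of the 4 libraries was left out (adjusted p 0.089 to 0.18).

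Genes of the unfolded protein response of the endoplasmic reticulum were split. Of 20 members, 8 rose and 4 fell in the cytoplasmic-labelled fraction, and 7 rose and 5 fell in the nuclear-labelled fraction. Over all genes 2.21% rose and 3.94% fell in the former, and 8.62% and 8.65% in the latter. HERPUD1, which acts in protein degradation at the endoplasmic reticulum, stood at 27.7 and 25.9 against 59.9 and 67.9 CPM (-1.26 ± 0.15). XBP1, a transcription factor of the response, stood at 33.4 and 28.3 against 75.8 and 76.8 CPM (-1.31 ± 0.15). The chaperone HSPA5 rose by 0.37 ± 0.09 in the cytoplasmic-labelled and by 0.18 ± 0.06 in the nuclear-labelled fraction, each call lost without 3 of the 4 libraries in turn. The 8 cytoplasmic-labelled rises became 3 without G325E replicate 1, 6 without G325E replicate 2, 3 without WT replicate 1 and 2 without WT replicate 2. The 7 nuclear-labelled rises became 3, 2, 1 and 7 in the same order.

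Host transcripts of small nucleolar RNAs, several of which are known targets of nonsense-mediated decay, were also examined. Of 25 members 9 rose and 0 fell in the cytoplasmic-labelled fraction, beside 2.21% of all genes rising, while in the nuclear-labelled fraction 5 rose and 4 fell, beside 8.62% and 8.65%. When settings were changed or 1 library was left out, the rises numbered 6 to 9 and 3 to 6. The cytoplasmic-labelled SNHG29 call and the nuclear-labelled SNHG17 call were lost whichever library was left out. SNHG5 stood at 56.3 and 60.7 against 34.2 and 29.7 CPM in the cytoplasmic-labelled fraction (0.88 ± 0.14). GAS5 stood at 502 and 483 against 316 and 298 CPM (0.68 ± 0.08), and in the nuclear-labelled fraction at 259 and 261 against 282 and 271 CPM, where it was not called (-0.09 ± 0.06). SNHG4 stood at 200 and 206 against 116 and 113 CPM in the cytoplasmic-labelled fraction (0.83 ± 0.11).

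Genes of the translation machinery had medians of opposite sign in the 2 fractions. Of 82 cytosolic ribosomal protein genes, 0 were called in the cytoplasmic-labelled fraction (median log2 fold change 0.09) and 28 fell in the nuclear-labelled fraction (median -0.11, beside 8.65% of all genes falling there). Of 40 translation factors, 3 rose and 2 fell in the cytoplasmic-labelled (median 0.14, beside 2.21% and 3.94% of all genes) and 3 rose and 17 fell in the nuclear-labelled fraction (median -0.12, beside 8.62% and 8.65%). In the test of the difference between the fractions, the nuclear-to-cytoplasmic labelled ratio was lower for 9 of the 82 and 8 of the 40, and higher for 0 and 1, beside 0.58% of all genes lower and 0.411% higher. EIF5, the GTPase activator of eIF2, stood at 316 and 327 against 167 and 180 CPM in the nuclear-labelled fraction (0.89 ± 0.06). EEF2, the elongation factor that moves the ribosome along, stood at 4002 and 3886 against 5359 and 5410 CPM (-0.45 ± 0.05). EIF2S2, the beta subunit of eIF2, fell by 0.88 ± 0.13 in the cytoplasmic-labelled and by 0.57 ± 0.06 in the nuclear-labelled fraction.

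Cell cycle and growth genes came next. Of 37 G1/S genes, 0 were called in the cytoplasmic-labelled fraction and 15 fell in the nuclear-labelled fraction, beside 3.94% and 8.65% of all genes falling. Of 32 mitosis genes, 0 rose and 1, NDC80, fell in the cytoplasmic-labelled fraction, a call lost whichever library was left out. In the nuclear-labelled fraction 3 of 30 mitosis genes rose and 12 fell, beside 8.62% and 8.65% of all genes. CDT1, which licenses replication origins, stood at 167 and 157 against 250 and 264 CPM there (-0.67 ± 0.06). MYC, a growth-promoting transcription factor, stood at 352 and 341 against 527 and 526 CPM (-0.60). Of the 12 tested granulocyte genes in the nuclear-labelled and 11 in the cytoplasmic-labelled fraction, FCGR2A, CSF3R and CD33 fell in each, beside 8.65% and 3.94% of all genes. The CD33 call was lost without 3 of the 4 cytoplasmic-labelled and 2 of the 4 nuclear-labelled libraries in turn, and the nuclear-labelled CSF3R call whichever library was left out. FCGR2A, an antibody receptor of myeloid cells, stood at 7.19 and 8.50 against 33.0 and 30.5 CPM in the cytoplasmic-labelled fraction (-2.01 ± 0.26). In that fraction CSF1R was at 0 in both groups. The summed level of 6 monocyte and granulocyte markers was 119 to 149 CPM with G325E and 209 to 227 CPM with WT there. It was 28.9 to 29.2 and 36.2 to 38.6 CPM in the nuclear-labelled fraction. Most of the cytoplasmic-labelled sum was CSF3R, at 92.5 and 122 CPM with G325E against 186 and 181 CPM with WT. LYZ went the other way, at 5.54 and 5.39 against 4.57 and 4.80 CPM, so the sum does not describe the markers as a set. The part of that sum in the result was not tested. Of the erythroid genes, 0 of 32 were called in the cytoplasmic-labelled fraction, while 3 of 34 rose and 3 fell in the nuclear-labelled fraction, a share near the 8.62% and 8.65% of all genes.

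**Figure D4:**
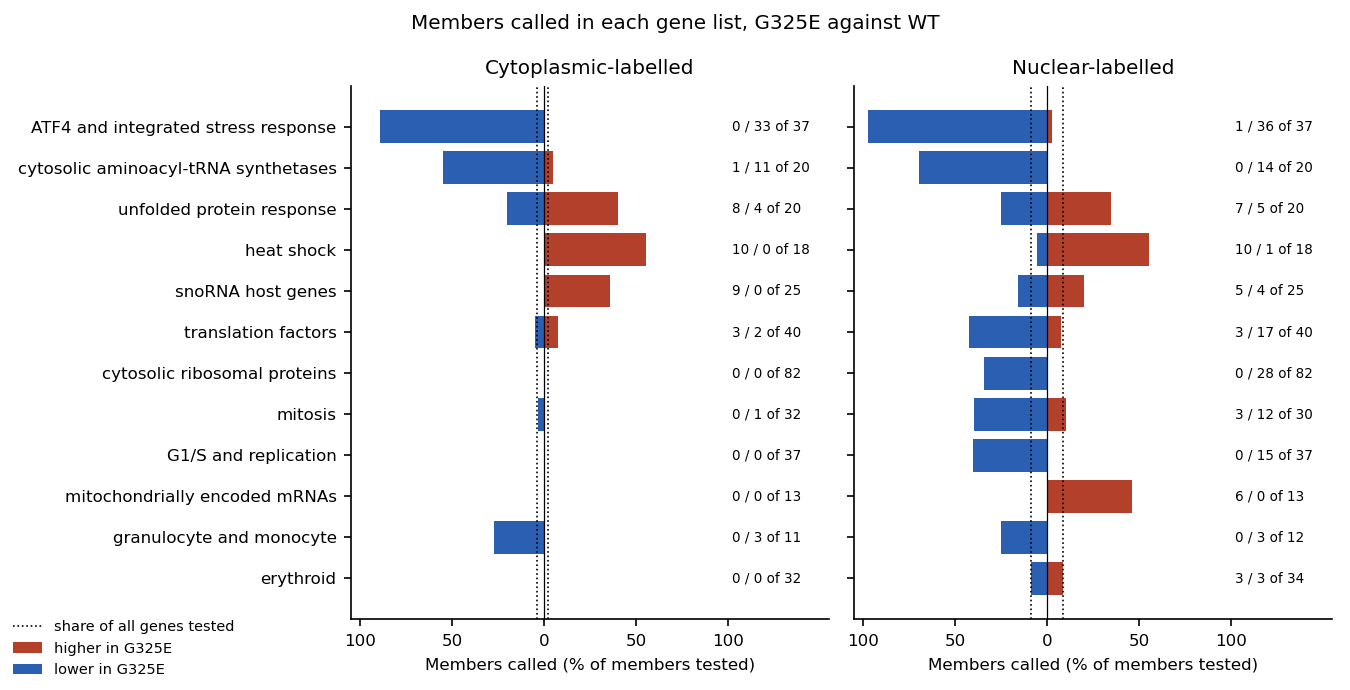
Percent of tested members called higher and lower with G325E against WT for 12 gene lists in each labelled fraction; dotted lines give the share of all genes tested. The ATF4 list and the synthetases stand furthest on the lower side and the heat shock list on the higher side.

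Among single genes that rose, NEFH, a neurofilament subunit, stood at 250 and 253 against 93.8 and 107 CPM in the nuclear-labelled fraction (1.32 ± 0.06, adjusted p = 1.7e-29). CRB2, a polarity protein, had the largest cytoplasmic-labelled rise under the naming rule, at 25.0 and 27.9 against 9.15 and 8.88 CPM (1.55 ± 0.21). ALCAM, an adhesion molecule, rose by 1.54 ± 0.28 there. The calls of HLA-B, HPS6 and INSRR, also among the 10 largest rises, were lost whichever library was left out. Those of SP9 and TAF13 were lost without G325E replicate 2, WT replicate 1 or WT replicate 2, and that of LRP2 without G325E replicate 1 or WT replicate 1. In the nuclear-labelled fraction FAM222A had the largest rise under the naming rule (1.48), ahead of NEFH. AJM1, ANXA1, RCOR2, GPR161, AMIGO1, HSPA1B, THBS1 and PALM3 followed NEFH, with rises between 1.30 and 1.01. THBS1, thrombospondin, stood at 48.5 and 58.3 against 24.6 and 27.7 CPM in the cytoplasmic-labelled fraction, and without a transgene at 28.7 and 25.1 CPM.

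Small RNAs were called mostly lower in the cytoplasmic-labelled and higher in the nuclear-labelled libraries. Of 254 small nuclear, nucleolar and Cajal body RNAs tested, 45 fell and 1 rose in the former, beside 3.94% and 2.21% of all genes. Of 88 tested in the latter 15 rose and 0 fell, beside 8.62% and 8.65% of all genes. Small RNAs made up 0.928 to 1.07% of the cytoplasmic-labelled counts with G325E, 1.59 to 2.22% with WT and 2.17 to 2.64% without a transgene. The share was 1.00 to 1.02% with R326H, 0.904 to 1.02% with R351W, 1.15% with R376C (1 library), 1.35 to 1.41% with R534S, 1.07 to 1.11% with T532M and 1.22 to 1.25% in uninfected cells, so that WT and no transgene lay above all other genotypes. MT-RNR1, the small mitochondrial ribosomal RNA, named after its values were seen, stood at 121 to 132 CPM with G325E and at 1282 to 7960 CPM with WT in the cytoplasmic-labelled libraries, so the 2 WT libraries lay far apart. With R376C (1 library) it stood at 224 CPM there. The order was the reverse in the nuclear-labelled libraries, at 7628 to 8054 CPM with G325E and 3610 to 5839 CPM with WT. Ribosomal RNA had been depleted, and small RNAs are caught in part by this library type; the part of depletion and size selection in these values was not tested. Fitted over protein-coding genes alone, an alternative added after the data were seen, 898 of 12205 genes were called in the cytoplasmic-labelled fraction, 404 higher and 494 lower.

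The change in the nuclear-to-cytoplasmic labelled ratio asked which genes moved unequally in the 2 fractions. It was called for 188 of 18969 genes (0.991%), 78 (0.411%) higher and 110 (0.58%) lower, and leaving out 1 library gave 73 to 148. Of the 78 higher, 29 were small RNAs and 37 protein-coding, and of the 110 lower 103 were protein-coding. Small RNAs were 327 and protein-coding genes 12597 of the 18969 genes tested. Fitted over protein-coding genes alone, 41 were higher and 106 lower. Genes below WT in this ratio included ATF4, GAS5 (-0.79 ± 0.11), HSP90AB1 (-0.71 ± 0.10, adjusted p = 7.0e-06), HSPA8, EEF2 (-0.61 ± 0.09) and RPL3, a ribosomal protein, and these calls remained whichever library was left out. MMP17, a membrane protease, rose (1.10 ± 0.24): it stood at 30.5 and 30.6 against 50.8 and 47.3 CPM in the cytoplasmic-labelled and at 17.4 and 16.9 against 12.6 and 12.6 CPM in the nuclear-labelled fraction. DDX17, a DEAD-box helicase, stood at 1492 and 1541 against 1874 and 1919 CPM in the cytoplasmic-labelled fraction (-0.32 ± 0.08). Its nuclear-labelled level was 688 and 685 against 594 and 591 CPM (0.21 ± 0.05), and its ratio rose by 0.51 ± 0.10 (adjusted p = 0.00092). HPS6, LAMTOR3, ARMT1, COMTD1, TAS2R4, AMIGO1 and ASS1, also among the named ratio changes, each lost the call without 5 to 8 of the 8 libraries in turn. For MALAT1 the ratio change was 0.02 (adjusted p = 1.00), and for NEAT1 it was -0.51 ± 0.11, lost without nuclear-labelled replicate 1 of G325E (-0.46, adjusted p = 0.065) or of WT (-0.42, adjusted p = 0.078).

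Set against the knockdown without a transgene, G325E differed in few genes. The comparison shares the G325E libraries with that against WT, so the values are given side by side only. In the cytoplasmic-labelled fraction 82 of 17530 genes (0.468%) were called, 17 higher and 65 lower. Of the 65, 44 were small RNAs, while small RNAs were 254 of the 17530 genes tested. The nuclear-labelled fraction had 35 of 14598 genes (0.24%) called, 27 higher and 8 lower. The cytoplasmic-labelled count was 1134 without replicate 1 of the no transgene group, 130 without its replicate 2, and 46 and 44 without G325E replicate 1 and 2. In edgeR's quasi-likelihood test 0 of the 37 ATF4 list members were called in either fraction, with median log2 fold changes of -0.11 and -0.10, beside -1.68 and -1.56 against WT; without replicate 1 of the no transgene group 5 were called in the cytoplasmic-labelled fraction. The intervals of single members reached from -1.73 to 2.58 and from -2.20 to 1.77, so the missing calls do not show that the groups are alike. Of the heat shock genes 0 of 18 were called in either fraction by edgeR, with medians of -0.16 and 0.02; in the cytoplasmic-labelled fraction all 18 estimates were below 0, and 3 were called without replicate 2 of the no transgene group and 2 in 1 fit over both fractions. PHGDH stood at 34.6 and 40.4 CPM without a transgene in the cytoplasmic-labelled fraction, which spans the 34.8 CPM of G325E replicate 2.

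The clearest difference from the knockdown was DDX3X itself, at 1.59 ± 0.09 and 1.91 ± 0.06. The tetraspanin CD82 stood at 14.2 and 14.0 against 4.66 and 5.03 CPM in the cytoplasmic-labelled fraction (1.53 ± 0.31) and fibronectin, FN1, at 22.9 and 21.0 against 13.5 and 5.94 CPM (1.19 ± 0.26). HBZ, embryonic zeta globin, stood at 12.7 and 11.5 against 25.0 and 31.3 CPM there (-1.22 ± 0.23). The CD82 and HBZ calls were lost without G325E replicate 1 or 2, and that of FN1 without either of these or without replicate 2 of the no transgene group (0.70, adjusted p = 0.30). In the nuclear-labelled fraction MUC4, a membrane mucin, stood at 22.5 and 21.1 against 6.80 and 7.81 CPM (1.58 ± 0.18), and with WT at 23.1 and 19.2 CPM. ANXA1, annexin A1, stood at 12.8 and 17.3 against 3.89 and 4.46 CPM (1.85 ± 0.23), and with WT at 7.64 and 5.86 CPM. The MUC4 and ANXA1 calls remained whichever library was left out.

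**Figure D5:**
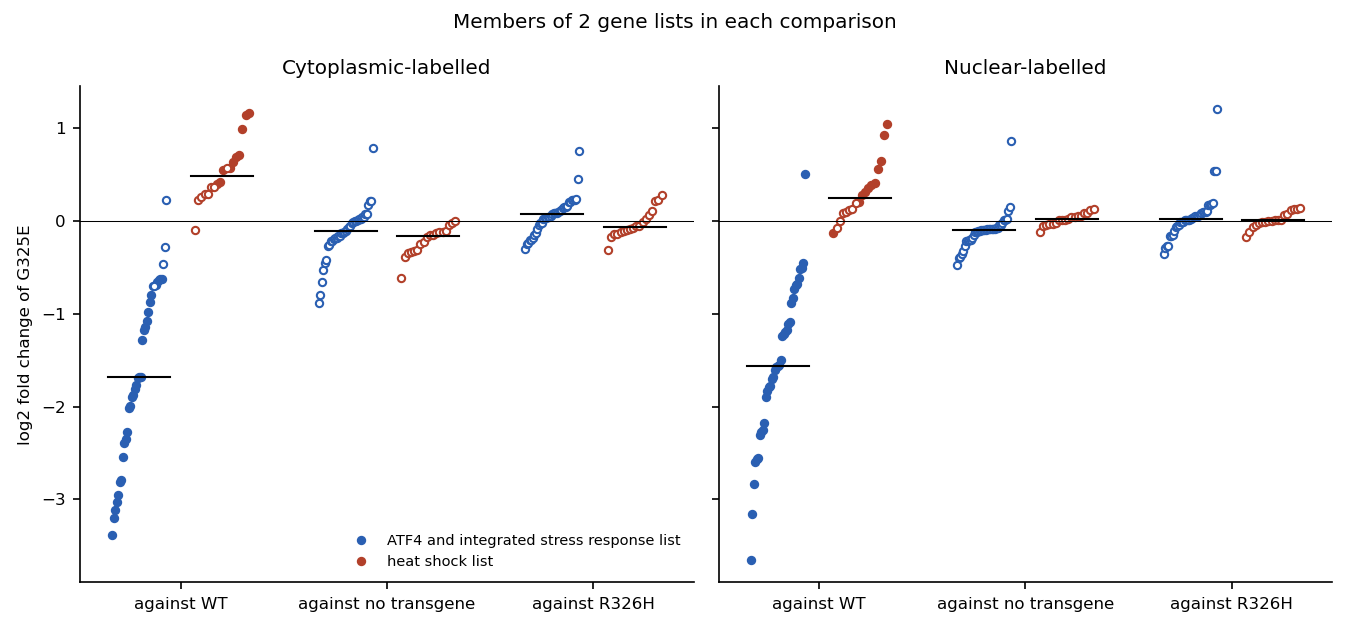
Log2 fold change of G325E against WT, the knockdown without a transgene and R326H for members of the ATF4 and heat shock lists in each labelled fraction; open points did not pass the test and the line is the median. The ATF4 list medians are -1.68 and -1.56 against WT and between -0.11 and 0.08 against the other 2 references; those of the heat shock list are 0.48 and 0.24 against WT and between -0.16 and 0.02 against the others, with all 18 cytoplasmic-labelled members below 0 against no transgene.

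Against R326H, the variant of the next residue, 3 of 17530 genes (0.0171%) were called in the cytoplasmic-labelled and 11 of 14598 (0.0754%) in the nuclear-labelled fraction. At an unadjusted p under 0.05 there were 890 of 17530 and 880 of 14598. The 3 were the small RNAs SNORD13 (-1.20), RNU5B-1 (-1.22) and the mitochondrial tRNA MT-TF (-1.84), and 0 genes were called over protein-coding genes alone. In the nuclear-labelled fraction HBG1, fetal globin with the near-identical copy HBG2, stood at 10.7 and 14.5 against 6.12 and 6.62 CPM (0.98 ± 0.20). The HBG1 call was lost without G325E replicate 2, R326H replicate 1 or R326H replicate 2. DDX3X was higher with G325E there (0.29 ± 0.05, adjusted p = 0.0039), a call lost whichever of the 4 libraries was left out. Leaving out 1 library gave 0 to 1 called genes in the cytoplasmic-labelled and 0 to 2 in the nuclear-labelled fraction. Of the 37 ATF4 list members 0 were called against R326H in either fraction. Their intervals reached from -0.97 to 2.47 and from -0.93 to 3.35, so the missing calls do not show that the groups are alike.

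Across the other genotypes, the median log2 ratio of the ATF4 list to WT was -1.68 with G325E in the cytoplasmic-labelled fraction, -1.75 with R326H, -1.71 with R351W, -1.62 with R534S, -1.55 with T532M, -0.92 with R376C (1 library), -1.52 without a transgene and 0.13 in uninfected cells. In the nuclear-labelled fraction it was -1.54 with G325E, -1.49 with R326H, -1.42 with R351W, -1.39 with R534S, -1.27 with T532M, -0.55 with R376C (1 library), -1.38 without a transgene and 0.47 in uninfected cells. These are ratios of mean CPM to the same WT libraries, given as a description. A list of mRNAs linked to DDX3 in earlier work had 0 of 13 members called in the cytoplasmic-labelled fraction by edgeR, beside 6.15% of all genes. In the nuclear-labelled fraction ATF4 fell (-1.20) and DVL1 and TGFB1 rose (0.36 and 0.25). These were 1 and 2 of 13 members, beside 8.65% of all genes falling and 8.62% rising there, so few calls stand apart from that share.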

How the data were processed

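RNA from cytoplasmic-labelled and nuclear-labelled fractions of K562 cells was sequenced after ribosomal RNA depletion, per the labels' protocols. The deposited values are read counts per gene, made by the authors with STAR 2.7.5a on GRCh38, per the submitters' processing notes; they name no annotation release. Column 4, the stranded count, was used as deposited; multimapping, no-feature and ambiguous lines stayed out of library sizes and tests. Of 60664 gene IDs, 60463 were matched to symbols.

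Counts were tested with edgeR 4.0.16 (R 4.3.3): TMM scaling, the default filter on low counts, robust quasi-likelihood tests and Benjamini-Hochberg adjustment over all genes tested, called at an adjusted p under 0.05. Each labelled fraction was fitted over 17 libraries of the transgene set, and the ratio over 34, with R376C nuclear-labelled replicate 2 left out because its content differed from that of the other nuclear-labelled libraries. Placing uninfected cells in that set is an assumption. CPM in the text are TMM-scaled, with exceptions that are scaled to total gene counts without TMM. These are MALAT1 and NEAT1 in the opening, mitochondrial ribosomal RNA, the cell type markers in the opening, and the summed monocyte and granulocyte markers with the CSF3R and LYZ values beside them. Intervals are 95% intervals of the fit. Replicate pairs differed by more than sampling noise, with chi-square per degree of freedom of 2.33 to 5.99.

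Named genes were the 10 largest rises and falls per labelled fraction (5 for the ratio, 3 for the other references) among called protein-coding genes with a mean of at least 5 CPM and no overlap, up to 3 called members of each of 31 lists, and DDX3X, MALAT1 and NEAT1; further list members were named by role after their values were seen. The members and lists were chosen with earlier results of these data known. The code was tested on simulated data. DESeq2 1.42.0 and other settings were alternatives. 1 gene that the naming rule selects is not reported here.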

Additional observations from a re-analysis of the deposited data

Results flagged for a closer look

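HSP90AB1, an HSP90 chaperone, was called higher with G325E in the cytoplasmic-labelled and lower in the nuclear-labelled fraction, and the test of the difference between the fractions gave a log2 change of -0.71 ± 0.10 (adjusted p = 7.0e-06). DDX17, a DEAD-box helicase, was called lower in the cytoplasmic-labelled and higher in the nuclear-labelled fraction, and the same test gave 0.51 ± 0.10 (adjusted p = 0.00092). The HSP90AB1 fall in the nuclear-labelled fraction (-0.13) was lost whichever of its 4 libraries was left out, while both calls of the difference remained whichever of the 8 libraries was left out.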

How the results depend on the processing

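Against WT, the number of genes called in the cytoplasmic-labelled fraction was 2034 with only the 2 groups in the fit, 1579 with 1 fit over both fractions, 849 with DESeq2, and 450 to 501 without 1 library. In the nuclear-labelled fraction it was 3330 with only the 2 groups in the fit and 1904 with DESeq2. There it was 1407 with 1 fit over both fractions and 1448 to 1644 without 1 library. The ratio count was 664 with only the 2 groups, 300 with DESeq2 and 73 to 148 without 1 library. Against no transgene it was 44 (only 2 groups), 137 (1 fit), 19 (protein-coding genes alone, added after the data were seen) and 44 to 1134 (without 1 library) in the cytoplasmic-labelled fraction, and 185 (only 2 groups), 12 (1 fit), 16 (DESeq2) and 10 to 16 (without 1 library) in the nuclear-labelled fraction. Against R326H it was 10 (no filter on low counts), 13 (only 2 groups), 11 (1 fit), 8 (DESeq2), 0 (protein-coding genes alone) and 0 to 1 (without 1 library), and in the nuclear-labelled fraction 7 (unstranded counts), 36 (only 2 groups), 0 (1 fit), 4 (DESeq2) and 0 to 2 (without 1 library). The log2 fold change of DDX3X in the cytoplasmic-labelled fraction was 0.31 to 0.45 without 1 library. The MALAT1 ratio change ranged from -0.032 to 0.070 without 1 library, and was negative without G325E cytoplasmic-labelled replicate 2, WT cytoplasmic-labelled replicate 1 or WT nuclear-labelled replicate 1. ATF4 list members that fell numbered 31 to 35 and 35 to 36 over the alternatives in the 2 fractions, and heat shock members that rose 6 to 11 and 7 to 12. The cause of these changes was not tested. The replicate numbers were not shown to pair samples: deviations of same-numbered libraries correlated at -0.0054 and -0.012 in the WT comparisons. With the replicate block the counts were 933, 2462, 151, 71, 30, 3 and 11 in the order above.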

Other observations

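Gene groups not described above had these calls, to be read beside 2.21% of all genes higher and 3.94% lower in the cytoplasmic-labelled fraction and 8.62% and 8.65% in the nuclear-labelled fraction. Of 13 mitochondrially encoded mRNAs, 0 were called in the cytoplasmic-labelled fraction and 6 rose in the nuclear-labelled fraction, of which the calls of MT-CO1, MT-CO2 and MT-CYB were each lost without 3 or 4 of the 4 libraries in turn. These mRNAs made up 2.94 to 3.42% of the nuclear-labelled counts with G325E and 2.06 to 2.17% with WT. The share was 3.35 to 4.15% without a transgene, 5.11 to 5.32% in uninfected cells and 1.93% with R376C (1 library). Against no transgene 0 of the 13 were called there, and all 13 estimates were below 0. Of 30 nucleoporin genes, 2 rose and 1 fell in the cytoplasmic-labelled fraction and 9 rose and 1 fell in the nuclear-labelled fraction. The cytoplasmic-labelled calls, AHCTF1, NUP188 and NUP42, were lost without 2, 3 and 4 of the 4 libraries in turn. Of the NF-kappaB response genes 0 of 15 were called in the cytoplasmic-labelled fraction by edgeR and 2 of 16, BCL3 and NFKB1, rose in the nuclear-labelled fraction, calls lost without 2 and 3 of the 4 libraries in turn. The interferon response genes had 0 of 21 called in the cytoplasmic-labelled fraction and 3 of 19 higher in the nuclear-labelled fraction. Those 3 were PSMB9, OAS3 and BST2, each call lost without 2 of the 4 libraries in turn. PSMB9 and OAS3 were near the floor, with means of 0.88 and 2.82 CPM. HMGCS1, an early enzyme of cholesterol synthesis, stood at 128 and 127 CPM with G325E and at 81.1 and 78.9 CPM with WT in the cytoplasmic-labelled fraction, with no overlap. EGR1, an immediate early transcription factor, stood at 37.0 and 38.8 against 68.4 and 60.8 CPM there.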
